A study of Mus musculus with 20 samples.

Results

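The HoxA cluster of the mouse lies on chromosome 6, and 9 of its genes were followed along the thoracic aorta: Hoxa2, Hoxa3, Hoxa4, Hoxa5, Hoxa6, Hoxa7, Hoxa9, Hoxa10 and Hoxa11. They were taken from the series' count table by matching its Ensembl gene IDs to these symbols, and all 9 were found among 54532 genes. RNA was sequenced from 20 aortic samples of C57BL/6J mice, 5 in each of 4 groups: descending aorta of mice given BAPN, descending aorta of mice given water, ascending aorta of mice given BAPN and ascending aorta of mice given water. BAPN (β-aminopropionitrile) blocks lysyl oxidase, the enzyme that cross-links collagen and elastin, and both treatments lasted 1 week. The labels give no age or sex and no genetic change, and the region of each sample is read from the letter in its title, A or D. The labels do not say whether samples came from separate animals or were pooled, so p-values measure only the spread between these samples.

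Hox genes encode homeodomain transcription factors that give cells along the body axis their positional identity. Within a cluster, genes at the 3′ end are switched on earlier in the embryo and reach further toward the head, and genes toward the 5′ end are switched on later and further toward the tail. Smooth muscle of the ascending aorta derives from cardiac neural crest and the second heart field, and that of the descending thoracic aorta derives mainly from somites, so the vessel spans cells that came from different positions of the axis. Adult cells often keep part of the embryonic Hox pattern. The comparison of regions asks which HoxA genes differ between the descending and the ascending aorta, and the comparison of treatments asks whether BAPN changed any of them in either region.

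The cluster divided in 2 steps. Hoxa2, Hoxa3 and Hoxa4, at the 3′ end, were read in both regions and were not called different between them in water-treated mice; under BAPN Hoxa3 was called higher in the descending aorta by 0.33 on the log2 scale, a call lost in several other fits. Hoxa5 was read in both regions but 5.09 times as high in the descending as in the ascending aorta of water-treated mice, and Hoxa6, Hoxa7, Hoxa9 and Hoxa10 were read in the descending aorta and at 0 to 9 counts per library in the ascending aorta. Hoxa11 was read in neither region beyond single counts. For BAPN against water, 0 of 8 tested members were called in either region. Over 15543 genes, 10.7% were called in the descending and 6.34% in the ascending aorta, so 0 of 8 is no result about the members. Hoxa6, Hoxa7, Hoxa9 and Hoxa10 had too few counts in the ascending aorta for a difference to be read.

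The 9 genes span 83.4 kb on the minus strand of GRCm38, chr6:52162417-52245810, so the 3′ end of the cluster has the lowest coordinates. Hoxa4, Hoxa5 and Hoxa6 all lie inside the annotated span of Hoxa3, whose longest transcripts start beyond Hoxa6. The change in regional pattern falls between Hoxa4, which ends at position 52191753, and Hoxa5, which starts at 52201754, and the fall to almost no counts in the ascending aorta falls between Hoxa5 and Hoxa6, which starts at 52206288.

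Promoter sequence was available from RefSeq (GRCm38.p6) for 8 of the 9 members; Hoxa4 had no entry. The stretches before the start sites of Hoxa5 and Hoxa6 are shown because the ascending aorta loses its signal between these neighbours, and that of Hoxa2 because its libraries overlapped between the regions. Each is read 5′ to 3′ on the minus strand: chr6:52164832-52165081 for Hoxa2, chr6:52204588-52204837 for Hoxa5 and chr6:52208723-52208922 for Hoxa6. Capitals mark CCAAT, the letters of the CCAAT box, and TGATNNAT, the composite site of a Hox protein and its partner PBX, on either strand; the capitals of the 2 motifs do not overlap.
Hoxa2: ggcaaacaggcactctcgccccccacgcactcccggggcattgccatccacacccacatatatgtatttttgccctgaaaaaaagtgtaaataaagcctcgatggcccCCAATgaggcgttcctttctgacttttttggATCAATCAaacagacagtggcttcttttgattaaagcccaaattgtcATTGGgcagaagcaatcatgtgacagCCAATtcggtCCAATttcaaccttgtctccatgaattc
Hoxa5: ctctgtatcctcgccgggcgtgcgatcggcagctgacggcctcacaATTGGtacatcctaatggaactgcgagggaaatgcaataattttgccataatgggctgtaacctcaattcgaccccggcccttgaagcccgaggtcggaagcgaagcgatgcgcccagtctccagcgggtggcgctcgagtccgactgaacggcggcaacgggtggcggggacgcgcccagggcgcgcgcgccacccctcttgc
Hoxa6: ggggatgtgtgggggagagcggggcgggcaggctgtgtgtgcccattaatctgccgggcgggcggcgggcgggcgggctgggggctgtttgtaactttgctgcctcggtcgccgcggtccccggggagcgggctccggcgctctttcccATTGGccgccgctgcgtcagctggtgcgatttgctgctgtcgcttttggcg
Of 6 motifs searched on both strands in the 250 bases before the RefSeq starts, CCAAT occurred in 4 of the 8 members with sequence, against 34.5% of 27025 windows of all genes. TGATNNAT occurred in Hoxa2 alone among the members and in 7.92% of all windows. TATAAA occurred in 1 member, Hoxa10, and in 12.97% of all windows. It can overlap TTTATNG on the other strand. Hoxa10 was searched in 2 windows, and its CCAAT and TATAAA lay only in window 2, while the shares of all genes take 1 window per gene. With window 1 alone, CCAAT was in Hoxa2, Hoxa5 and Hoxa6, and TATAAA in no member. The homeodomain letters TAATTA were in 0 of the 8 members, against 4.90% of all windows, TTTATNG, read by posterior Hox and Cdx proteins, in 0 against 10.2%, and the nuclear receptor letters AGGTCA in 0 against 13.8%. The Hoxa5 window held 28 CpG dinucleotides, the whole Hoxa6 window 24 and the Hoxa2 window 6, and the median of all windows was 6. The others held 18 for Hoxa3, 7 for Hoxa7, 3 for Hoxa9, 7 and 20 for the windows of Hoxa10 and 13 for Hoxa11. These counts did not follow the regional differences. These matches describe letters only.

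Library totals lay between 15.7 M and 23.3 M counts, and no 2 replicate libraries agreed within counting noise. The reads were counted per gene, and levels are given as CPM, the library's counts scaled to a common total of 1 M after trimmed-mean scaling. All 6 smooth muscle markers, among them Myh11 and Acta2, were read in every group, with summed medians of 23530 CPM in descending BAPN, 19895 CPM in descending water, 22400 CPM in ascending BAPN and 18817 CPM in ascending water, which fits the tissue on the labels. Markers of other cell types moved with region: the summed median of 6 mesothelial markers was 5.60 CPM in descending BAPN, 6.07 CPM in descending water, 249 CPM in ascending BAPN and 322 CPM in ascending water, and that of 7 cardiomyocyte markers was 78.8 CPM in descending BAPN, 72.6 CPM in descending water, 802 CPM in ascending BAPN and 546 CPM in ascending water. The 20 libraries also fell into 2 sets by the level of 33 genes whose symbols mark them as pseudogenes. All 5 descending BAPN libraries were in the low set and all 5 ascending BAPN libraries in the high set. Each water group had libraries in both.

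**Figure D1:**
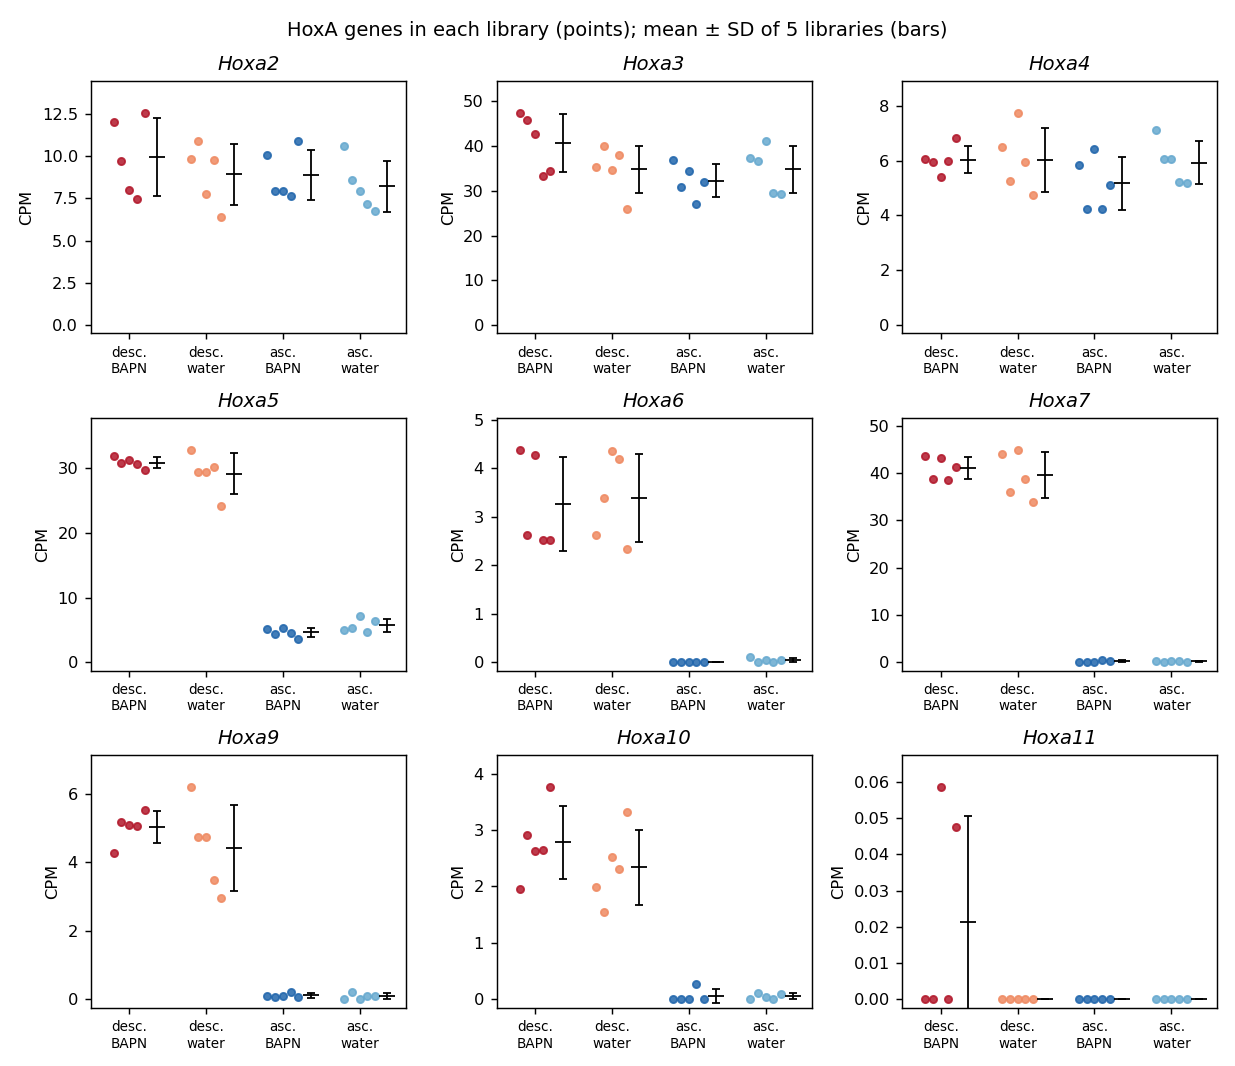
Level of each of the 9 HoxA genes in CPM (y axis, its own linear scale from 0 in each panel) in the 4 groups (x axis). Each point is 1 library and each bar a mean ± SD of 5 libraries. The groups overlap for Hoxa2, Hoxa3 and Hoxa4, and every descending library lies above every ascending library for Hoxa5, Hoxa6, Hoxa7, Hoxa9 and Hoxa10.

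Of the 8 members with enough counts to be tested, 5 were higher in the descending than in the ascending aorta of water-treated mice and 0 were lower (edgeR quasi-likelihood test, Benjamini-Hochberg adjusted p under 0.05), where 12.1% of 15543 genes were called higher and 15.2% lower. Hoxa6, Hoxa7, Hoxa9 and Hoxa10 passed the filter on low counts only through the descending groups, so their being called is in part set by that filter, and the counts per library below show what stands behind each. The median log2 difference of the 8 was 3.87, against 0.01 over all genes tested. This median lies between the values of Hoxa5 and Hoxa10, so the filter in part sets it as well. The 5 called members were also the 5 whose groups did not overlap, as 8.37% of all genes tested did in this direction. For Hoxa6, Hoxa7, Hoxa9 and Hoxa10 the filter in part sets this lack of overlap too.

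Hoxa2, a gene of hindbrain and second-arch patterning in the mouse embryo, had 9.83, 10.9, 7.74, 9.77 and 6.38 CPM in the 5 descending water libraries, against 10.6, 8.61, 7.92, 7.14 and 6.77 CPM in the 5 ascending water libraries. The ranges lay almost wholly over each other. The fitted log2 difference was 0.12 (SE 0.16, adjusted p = 0.635 by edgeR), with a 95% interval of -0.22 to 0.46.

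Hoxa3, needed in the mouse embryo for derivatives of the third pharyngeal arch, among them the carotid artery, had 35.3, 40.0, 34.6, 38.0 and 26.0 CPM in descending water, against 37.2, 36.8, 41.2, 29.5 and 29.4 CPM in ascending water. The groups overlapped throughout, with means of 34.8 ± 5.34 CPM in descending water and 34.8 ± 5.21 CPM in ascending water (SD, n = 5 each). Its log2 difference was -0.00 (SE 0.12, adjusted p = 0.989 by edgeR), and the 95% interval of the fold ran from 0.842 to 1.18.

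Hoxa4, which takes part in patterning the neck vertebrae of the mouse, averaged 6.03 ± 1.17 CPM in descending water and 5.92 ± 0.797 CPM in ascending water (SD, n = 5 each). Its libraries ranged over 4.72 to 7.74 CPM in descending water and 5.19 to 7.13 CPM in ascending water. The log2 difference was 0.03 (SE 0.14, adjusted p = 0.903 by edgeR), with a 95% interval of the fold from 0.835 to 1.25. For these 3 genes a regional difference as large as that of Hoxa5 lies outside the interval.

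Hoxa5, required in the mouse for lung and cervicothoracic skeletal development, had 32.9, 29.4, 29.4, 30.2 and 24.2 CPM in descending water, against 4.93, 5.22, 7.13, 4.73 and 6.43 CPM in ascending water. The lowest descending library was above 3 times the highest ascending one. The summed counts were 2623 in descending water and 585 in ascending water, and the ratio after scaling was 5.09 (95% counting interval 4.66 to 5.58). The log2 difference was 2.35 (SE 0.10, adjusted p = 1.41e-15 by edgeR).

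Hoxa6, the next gene in the 5′ direction, had 51, 55, 81, 78 and 38 counts in the descending water libraries, against 2, 0, 1, 0 and 1 counts in the ascending water libraries. This is the first member along the cluster with libraries at 0. The ratio of summed counts was 86.1 (95% counting interval 33.3 to 318), and the log2 difference was 6.20 (SE 0.44, adjusted p = 2.55e-10 by edgeR).

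Hoxa7 had 862, 584, 836, 723 and 553 counts in descending water, against 3, 1, 5, 5 and 1 counts in ascending water. Its mean was 39.6 ± 4.87 CPM in descending water and 0.145 ± 0.0934 CPM in ascending water (SD, n = 5 each), the largest fitted difference among the members tested under water. Its ratio of summed counts was 269 (95% counting interval 163 to 482), and the log2 difference was 8.002 (SE 0.21, adjusted p = 7.14e-20 by edgeR). The fitted 95% interval of the fold, 187 to 351, is narrower than the counting interval, so this SE understates the error. The same holds for the SEs of Hoxa6, Hoxa9 and Hoxa10.

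Hoxa9, best known for its part in blood stem cells and leukaemia, had 121, 77, 88, 65 and 48 counts in descending water, against 0, 4, 0, 2 and 2 counts in ascending water. Hoxa10, known for patterning the uterus and the lumbar spine in the mouse, had 39, 25, 47, 43 and 54 counts in descending water, against 0, 2, 1, 0 and 2 counts in ascending water. No descending library of either gene came near the highest ascending one. The ratio of summed counts was 56.7 for Hoxa9 (95% counting interval 28.5 to 132) and 47.3 for Hoxa10 (95% counting interval 19.9 to 147). Their log2 differences were 5.69 (SE 0.37, adjusted p = 3.07e-12) and 5.38 (SE 0.53, adjusted p = 9.65e-09), both by edgeR. Without ascending water replicate 2, which held 4 of the 8 ascending counts of Hoxa9, its log2 difference was 6.34 (SE 0.41).

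Hoxa11, a gene of forearm and kidney development in the mouse, had 1 count in each of 2 descending BAPN libraries and 0 in the other 18. It did not pass the filter and was not tested. At this depth a count of 0 over the 5 descending water libraries allows a level of up to 0.0336 CPM, taking 3 counts over the group as the limit, and over the 5 ascending water libraries up to 0.0296 CPM. These limits, like the intervals of ratios, cover counting error only.

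In these bulk samples fewer cells of a type and less RNA per cell cannot be told apart. The mesothelial and cardiomyocyte markers given above were lower in the descending aorta, where Hoxa5 to Hoxa10 were higher. Of the other marker lists, 6 of 6 chondrocyte markers and 5 of 6 adventitial fibroblast markers were called lower in descending water than in ascending water, 3 of 5 brown adipocyte markers were called higher and 1 lower, and 2 of 5 white adipocyte markers were called higher. Also in descending water, 3 of 5 tested Schwann cell markers, 3 of 4 tested skeletal muscle markers and 1 of 3 tested T cell markers were called lower, and of 6 endothelial markers 1 was called higher and 1 lower. Over all genes tested, 12.1% were called higher and 15.2% lower, so 1 call in a short list is no result. Summed Schwann markers were alike, at medians of 355 CPM in descending water and 351 CPM in ascending water. The median log2 difference of the 5 tested Schwann markers was -0.87, so the level sum does not stand for most of them. Summed brown adipocyte markers ranged over 111 to 185 CPM in descending water and 97.0 to 122 CPM in ascending water. None of the 6 smooth muscle and none of the 6 macrophage markers was called in this comparison. Of the listed markers, the chondrocyte gene Col2a1 was at 0 in every descending BAPN library and the chondrocyte gene Cnmd in every descending water library, and no other marker was at 0 throughout a group. The part of any of these cells in the HoxA differences was not tested.

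Under BAPN the same comparison called 6 of 8 tested members higher and 0 lower, where 14.2% of 15543 genes were called higher and 15.6% lower. The groups of Hoxa5, Hoxa6, Hoxa7, Hoxa9 and Hoxa10 again did not overlap, as 9.37% of all genes tested did in this direction. The sixth called member was Hoxa3. As under water, the filter on low counts in part sets both the calls and the lack of overlap of Hoxa6, Hoxa7, Hoxa9 and Hoxa10.

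Hoxa3 had 47.4, 45.8, 42.7, 33.3 and 34.5 CPM in descending BAPN, against 37.0, 30.8, 34.5, 27.1 and 31.9 CPM in ascending BAPN. The groups overlapped, with 3 descending libraries above the whole ascending group and 2 within it. The log2 difference was 0.33 (SE 0.12, adjusted p = 0.0303 by edgeR), with a 95% interval of the fold from 1.06 to 1.495. It was not called in 6 of the 20 fits that left out 1 library, those without ascending BAPN replicate 2, 4 or 5 or without descending BAPN replicate 1, 2 or 3 (adjusted p from 0.0539 to 0.0966). With the set of the libraries by pseudogene level as a term in the fit, the difference was 0.09 (SE 0.15, adjusted p = 0.78 by edgeR). The 2 BAPN groups lie wholly in different sets, so no value within a set can be had for this comparison.

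Hoxa5 had 32.0, 30.9, 31.3, 30.6 and 29.8 CPM in descending BAPN, against 5.18, 4.398, 5.23, 4.52 and 3.61 CPM in ascending BAPN. Its ratio of summed counts was 6.67 (95% counting interval 6.01 to 7.42) and its log2 difference 2.74 (SE 0.11, adjusted p = 1.57e-16 by edgeR). Hoxa6 had 78, 44, 73, 44 and 53 counts in descending BAPN and 0 counts in all 5 ascending BAPN libraries. With 3 counts over the ascending group as the limit, it was at least 95.3-fold higher in descending BAPN; the lower limit of the exact 95% counting interval of the ratio was 77.0.

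Hoxa7 had 778, 652, 738, 673 and 870 counts in descending BAPN, against 0, 1, 2, 9 and 4 counts in ascending BAPN. Its ratio was 227 (95% counting interval 140 to 398) and its log2 difference 7.77 (SE 0.21, adjusted p = 1.55e-19 by edgeR). Hoxa9 had 76, 87, 87, 88 and 116 counts in descending BAPN, against 2, 1, 2, 4 and 1 counts in ascending BAPN, and Hoxa10 had 35, 49, 45, 46 and 79 counts in descending BAPN, against 0, 0, 0, 5 and 0 counts in ascending BAPN. The log2 differences of Hoxa9 and Hoxa10 were 5.39 (SE 0.35, adjusted p = 4.13e-12) and 5.46 (SE 0.53, adjusted p = 6.73e-09), both by edgeR. Ascending BAPN replicate 4 held 9 of the 16 ascending counts of Hoxa7 and all 5 of Hoxa10. Without that library the log2 difference of Hoxa7 was 8.59 (SE 0.22), and Hoxa10, then at 0 in the 4 ascending libraries left, was at least 65.9-fold higher in descending BAPN, with 3 counts over those 4 libraries as the limit. Both stayed called. Hoxa2 and Hoxa4 were not called, at log2 differences of 0.17 (SE 0.16, adjusted p = 0.483) and 0.22 (SE 0.14, adjusted p = 0.260).

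**Figure D2:**
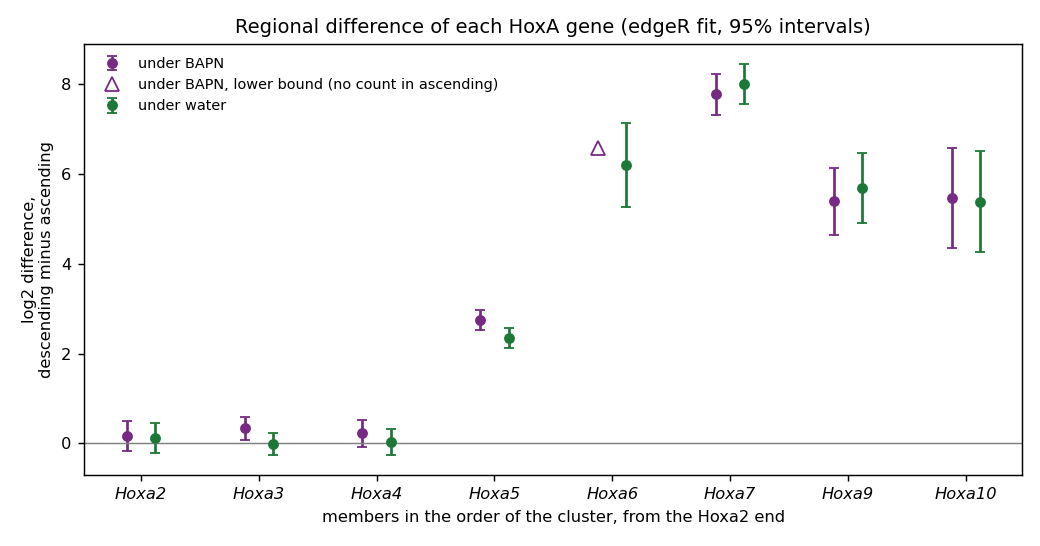
Fitted log2 difference, descending minus ascending (y axis), of the 8 tested members in cluster order (x axis), under BAPN and under water, with 95% intervals. For Hoxa6, Hoxa7, Hoxa9 and Hoxa10 these intervals are narrower than the counting intervals and understate the error. The triangle is the lower bound for Hoxa6 under BAPN, 6.57 on the log2 scale. The first 3 genes lie near 0, Hoxa5 at 2.74 under BAPN and 2.35 under water, and the others between 5.38 and 8.002.

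Levels of different genes were compared per kilobase of exon shared with no other gene. In descending water the order was Hoxa7 at 17.3 ± 2.13, Hoxa5 at 15.6 ± 1.68, Hoxa3 at 7.93 ± 1.22, Hoxa2 at 5.92 ± 1.21, Hoxa4 at 4.50 ± 0.874, Hoxa6 at 3.86 ± 1.04, Hoxa9 at 0.804 ± 0.230 and Hoxa10 at 0.715 ± 0.202 CPM per kb (SD, n = 5). Hoxa7 and Hoxa5, Hoxa4 and Hoxa6, and Hoxa9 and Hoxa10 differed, as neighbours in this order, by less than the larger of their SDs. The order of Hoxa7 and Hoxa5 turns with the length used: on all exon bases Hoxa5 was at 16.5 and Hoxa7 at 14.3 CPM per kb in descending BAPN, and Hoxa5 at 15.6 and Hoxa7 at 13.8 CPM per kb in descending water. The level did not change evenly along the cluster: Hoxa6 lay below both of its neighbours Hoxa5 and Hoxa7 in every descending library, by a mean log2 ratio of Hoxa6 to Hoxa5 of -2.19 ± 0.385 in descending BAPN and -2.05 ± 0.371 in descending water. In ascending water the order was Hoxa3 at 7.94 ± 1.19, Hoxa2 at 5.44 ± 1.01, Hoxa4 at 4.42 ± 0.595 and Hoxa5 at 3.03 ± 0.554 CPM per kb, with Hoxa7, Hoxa6, Hoxa9 and Hoxa10 all under 0.07 CPM per kb.

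Among neighbours read in every library, Hoxa5 and Hoxa4 changed places between the regions. Within each library the log2 ratio of Hoxa5 to Hoxa4 per kb was 1.64 to 2.05 in descending BAPN, 1.44 to 2.004 in descending water, -0.99 to -0.40 in ascending BAPN and -1.02 to -0.18 in ascending water. It was above 0 in all 10 descending libraries and below 0 in all 10 ascending libraries on this length. Hoxa4 has 1339 unshared and 1594 total exon bases, and Hoxa5 has 1877 of each. On all exon bases the ratio was above 0 in ascending water replicate 5 and barely above 0 in ascending water replicate 3, so the turn depends on the length used. The ascending water means kept their order there, at 3.03 for Hoxa5 and 3.72 for Hoxa4 CPM per kb. The ratio of Hoxa4 to Hoxa3 showed no such turn, with means of -1.03 ± 0.308 in descending BAPN, -0.82 ± 0.288 in descending water, -0.95 ± 0.158 in ascending BAPN and -0.84 ± 0.143 in ascending water (SD, n = 5).

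**Figure D3:**
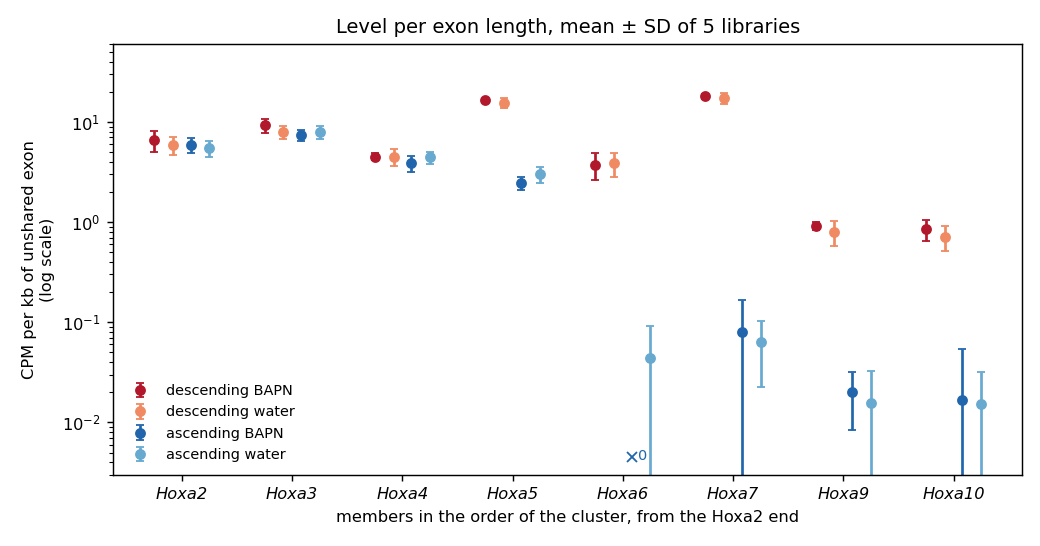
Level of 8 members per kb of exon shared with no other gene (y axis, log scale, CPM per kb) in cluster order (x axis) in the 4 groups, as mean ± SD of 5 libraries; bars that reach the bottom axis go to 0 or under it. A cross marks Hoxa6 in ascending BAPN, at 0. The ascending groups follow the descending ones up to Hoxa4, part from them at Hoxa5 and lie under 0.1 CPM per kb from Hoxa6 on.

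The make-up of the HoxA signal differed accordingly. Hoxa2, Hoxa3 and Hoxa4 together took 40.4% ± 2.73 of the members' counts in descending BAPN, 38.6% ± 2.94 in descending water, 90.3% ± 1.76 in ascending BAPN and 89.0% ± 2.04 in ascending water (SD, n = 5). Hoxa5 took 22.2% ± 1.23 in descending BAPN, 22.7% ± 0.768 in descending water, 8.98% ± 1.22 in ascending BAPN and 10.4% ± 2.02 in ascending water. Hoxa6 to Hoxa10 took 37.4% ± 1.90 in descending BAPN, 38.7% ± 2.86 in descending water, 0.732% ± 0.854 in ascending BAPN and 0.592% ± 0.153 in ascending water. These are shares of reads, not of transcripts, since the genes differ in length.

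**Figure D4:**
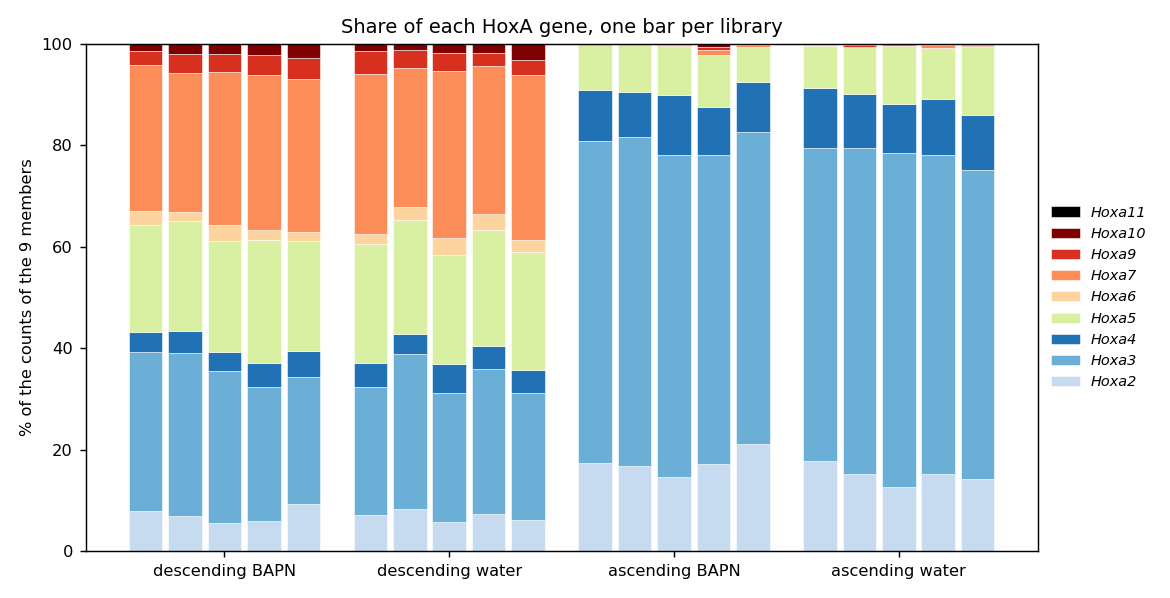
Share of the summed counts of the 9 members taken by each gene (y axis, percent), 1 stacked bar per library, grouped by region and treatment (x axis). Hoxa3 alone takes 60.9% to 65.9% in the ascending libraries, and Hoxa7 takes 27.4% to 33.0% in the descending ones.

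BAPN against water called 0 of 8 tested members in the descending aorta, where 10.7% of 15543 genes were called, and 0 of 8 in the ascending aorta, where 6.34% were called. For each of the 9 members the BAPN and water libraries overlapped in both regions, where 7.38% of all genes tested in the descending and 7.51% in the ascending aorta did not overlap. Hoxa11, almost without counts and not tested, could only overlap. In practice so could Hoxa6, Hoxa7, Hoxa9 and Hoxa10 in the ascending aorta. At shares this low, neither 0 calls nor full overlap is a result about the members. In the descending aorta the largest log2 differences were 0.26 for Hoxa10 (SE 0.31, adjusted p = 0.687, 95% interval -0.40 to 0.91) and 0.23 for Hoxa3 (SE 0.12, adjusted p = 0.240, 95% interval -0.02 to 0.47). Hoxa5 and Hoxa7, the best counted of the genes that separate the regions, had the narrowest intervals there: the fold of BAPN over water lay between 0.926 and 1.21 for Hoxa5 and between 0.891 and 1.21 for Hoxa7. Hoxa6 at -0.05 (SE 0.24), Hoxa9 at 0.18 (SE 0.21), Hoxa2 at 0.16 (SE 0.16) and Hoxa4 at -0.00 (SE 0.14) were likewise not called, all by edgeR.

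In the ascending aorta Hoxa5 was the member with the smallest p. Its mean was 4.59 ± 0.663 CPM in ascending BAPN and 5.69 ± 1.04 CPM in ascending water (SD, n = 5 each), a log2 difference of -0.31 (SE 0.12) with an unadjusted p of 0.016 and an adjusted p of 0.131 by edgeR. Hoxa2 at 0.11 (SE 0.16), Hoxa3 at -0.11 (SE 0.12) and Hoxa4 at -0.19 (SE 0.14) were not called. Hoxa6, Hoxa7, Hoxa9 and Hoxa10 had at most 16 counts over a group there, too few for a difference to be read: the sums were 0, 16, 10 and 5 in ascending BAPN and 4, 15, 8 and 5 in ascending water.

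Whether BAPN acted differently in the 2 regions was tested as a term of its own, which called 0 of 8 members and 0 of 15543 genes by edgeR, with 1070 genes at an unadjusted p under 0.05; DESeq2 called 14 genes, none of them a member. The difference of the BAPN effects, descending minus ascending, was 0.39 on the log2 scale for Hoxa5 (SE 0.15, adjusted p = 0.589) and 0.34 for Hoxa3 (SE 0.16, adjusted p = 0.726).

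**Figure D5:**
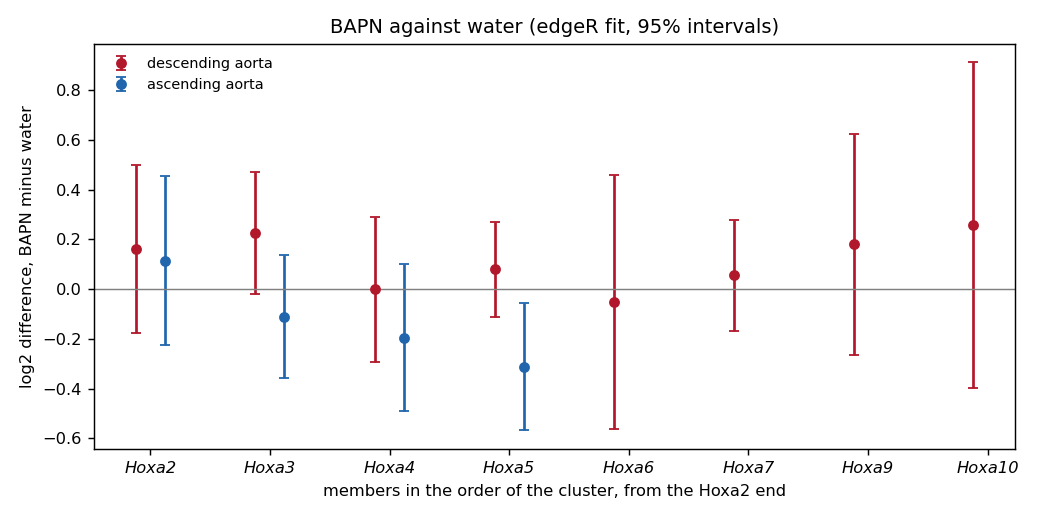
Fitted log2 difference, BAPN minus water (y axis), of the tested members in cluster order (x axis), in the descending aorta for 8 members and in the ascending aorta for the 4 with enough counts, with 95% intervals. The intervals hold 0 except for Hoxa5 in the ascending aorta, whose adjusted p was 0.131.

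Hotairm1, a long non-coding RNA transcribed from the other strand beside Hoxa2, was not called between descending and ascending water, at a log2 difference of 0.18 (SE 0.17, adjusted p = 0.509 by edgeR), and neither was Hoxaas2, an antisense transcript beside Hoxa3, at 0.13 (SE 0.10, adjusted p = 0.407). Hoxaas3, whose annotated span runs from Hoxa3 past Hoxa6 to Hoxa7, was higher in descending water, at 1.91 ± 0.489 CPM, than in ascending water, at 0.940 ± 0.287 CPM, with a log2 difference of 1.02 (SE 0.29, adjusted p = 0.00787). Gm27477, a short gene just beyond the 3′ end of Hoxa2, was not called under water, at 0.53 (SE 0.22, adjusted p = 0.0683), and was called higher in the descending aorta under BAPN, at 0.89 (SE 0.21, adjusted p = 0.00211). The exons of Hoxaas3 overlap those of Hoxa3 and Hoxa7, and since the library protocol on the labels names no strand, reads of sense and antisense genes cannot be told apart. At the 5′ end Hoxa13 had 1 count in 20 libraries and the neighbouring gene Evx1 had 0, while Skap2, a neighbour of the cluster at its 3′ end, was higher in descending water with a log2 difference of 0.31 (SE 0.05, adjusted p = 9e-06).

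The unshared part of the exons, on which HTSeq could count without ambiguity, was 72.9% for Hoxa3, 79.6% for Hoxa7, 84.0% for Hoxa4, 84.96% for Hoxa2 and 65.0% for Hoxa11, and 98.5% or more for Hoxa5, Hoxa6, Hoxa9 and Hoxa10. The miRNA gene Mir196b, which lies wholly inside an exon of Hoxa9, had 0 counts in the table.

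The other Hox clusters carry paralogs, genes of like sequence at the same place in a cluster. In the same comparison under water, 8 of 8 tested HoxB genes and 4 of 4 tested HoxC genes were called higher in the descending aorta. Of 2 tested HoxD genes 0 were higher and 1, Hoxd9, was lower. Over all 15543 genes tested, 12.1% were called higher and 15.2% lower. Most of the HoxB and HoxC genes passed the filter only through the descending groups, as Hoxa6 to Hoxa10 did. Paralogs of Hoxa7 and Hoxa6 had almost no counts in the ascending aorta: Hoxb7 averaged 16.2 CPM in descending water and 0.0222 CPM in ascending water, Hoxb6 27.6 CPM in descending water and 0.0222 CPM in ascending water, and Hoxc6 6.78 CPM in descending water and 0.0199 CPM in ascending water. Hoxb5 averaged 13.8 CPM in descending water and 0.266 CPM in ascending water, and Hoxc5 1.49 CPM in descending water with 0 counts in ascending water, where Hoxa5 kept 5.69 CPM. Hoxd9 averaged 0.693 ± 0.256 CPM in descending water and 1.28 ± 0.363 CPM in ascending water, with a log2 difference of -0.87 (SE 0.32, adjusted p = 0.0435 by edgeR), opposite in sign to Hoxa9 and Hoxb9. As 1 call among 2 tested genes, this is no result about the HoxD cluster.

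At the 3′ end the paralogs were also set beside the members. Hoxb2, Hoxb3 and Hoxb4 were called higher in descending water, with log2 differences of 0.73 (SE 0.13, adjusted p = 6.63e-05), 1.20 (SE 0.14, adjusted p = 1.85e-07) and 0.82 (SE 0.10, adjusted p = 5.84e-07) by edgeR. Hoxa2, Hoxa3 and Hoxa4 lay at 0.12, -0.00 and 0.03, and the upper bounds of their 95% intervals were 0.46, 0.24 and 0.32. The difference between a member and its paralog was not tested.

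Hox proteins bind DNA with partners of the PBX and MEIS families. Of 9 tested genes of these partners, 0 were called higher and 4 lower in descending than in ascending water, where 12.1% of all genes tested were called higher and 15.2% lower. Meis2 averaged 34.1 ± 2.35 CPM in descending water and 58.2 ± 1.58 CPM in ascending water (SD, n = 5 each), a log2 difference of -0.77 (SE 0.06, adjusted p = 4.65e-11 by edgeR). Meis1 lay at -0.60 (SE 0.06, adjusted p = 5.3e-09) and Pbx3 at -0.34 (SE 0.09, adjusted p = 0.00814). Meis1, Meis2 and Pbx3 were lower where Hoxa5 to Hoxa10 were higher.

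Retinoic acid and the Cdx factors switch Hox genes on in the embryo. Cdx2 and Cdx4 had 0 counts in all 20 libraries and Cdx1 had 1, so no Cdx gene was tested. Of 12 tested genes, Gdf11, a growth factor of axial patterning, and genes for making, clearing and sensing retinoic acid, 0 were called higher and 4 lower in descending water, with a median log2 difference of -0.21, where 12.1% of all genes tested were called higher and 15.2% lower. Under BAPN the same 12 gave 2 called higher and 5 lower, where 14.2% of all genes tested were called higher and 15.6% lower. The 4 lower in descending water were the synthesis enzymes Aldh1a1 at -1.76 (SE 0.06, adjusted p = 5.53e-18), Aldh1a2 at -4.21 (SE 0.29, adjusted p = 1.18e-11) and Aldh1a3 at -0.61 (SE 0.10, adjusted p = 5.1e-05), and Cyp26a1, which breaks retinoic acid down, at -5.30 (SE 0.44, adjusted p = 4.3e-10), all by edgeR. Aldh1a2 averaged 0.821 ± 0.544 CPM in descending water and 15.6 ± 3.57 CPM in ascending water, and the summed mesothelial markers ranged over 1.47 to 12.3 CPM in descending water and 221 to 399 CPM in ascending water; the part of those cells in the difference was not tested.

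Polycomb proteins keep Hox genes silent and trithorax proteins keep them active. Of 22 tested Polycomb genes, 3 were called higher and 3 lower in descending water, with a median log2 difference of 0.02, where 12.1% of all genes tested were called higher and 15.2% lower. These shares lie near those of all genes and are no result about the Polycomb genes. Cbx2, a chromobox subunit of Polycomb repressive complex 1, averaged 3.34 ± 0.488 CPM in descending water and 5.36 ± 0.948 CPM in ascending water, at -0.68 (SE 0.15, adjusted p = 0.000832). Ezh1, a histone methyltransferase, lay at -0.24 (SE 0.05, adjusted p = 0.000868), and Bmi1 and Rbbp4 were higher by 0.21 (SE 0.05, adjusted p = 0.00197) and 0.14 (SE 0.03, adjusted p = 0.00183). Of 12 tested trithorax-group genes, 2 were called higher, Dot1l at 0.30 (SE 0.06, adjusted p = 0.000297) and Wdr5 at 0.23 (SE 0.06, adjusted p = 0.00682), and 1 lower, Kmt2a at -0.17 (SE 0.05, adjusted p = 0.0208), with a median of 0.04, again near the shares of all genes. Each of these was smaller than a 2-fold change, far under the differences of Hoxa5 to Hoxa10.

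Genes outside the cluster whose pattern over the 20 libraries was most like each member were found by the root mean square distance of log2 CPM centred on each gene's mean, among 13782 genes. Hoxa6 lay closest to Hoxb5 and Hoxc8, Hoxa7 to Hoxc6 and Hoxb8, and Hoxa9 to Hoxc4 and Hoxc8, at distances of 0.767 to 1.09. Hoxa10 lay closest to Gm53 at 0.658, ahead of Hoxc4 at 0.883; Gm53 averaged 2.82 CPM in descending water and 0.0265 CPM in ascending water. Hoxa5, with its partial difference, lay closest to Epha3, an ephrin receptor, at 0.259 and to Lrrn1, a leucine-rich repeat membrane protein, at 0.268, and Epha3 averaged 111 CPM in descending water and 17.8 CPM in ascending water. For Hoxa2, Hoxa3 and Hoxa4, which varied by only 0.221 to 0.274 about their own means on the same scale, the closest genes were Id2 and Sertad3, Osr1 and Trim47, and Dexi and Zfp369, at 0.135 to 0.170.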

How the data were processed

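The authors deposited unnormalised read counts for each gene. Per the submitters' processing notes, reads were handled with fastp, STAR 2.5 and HTSeq 0.6.1 against mm10; the settings and the annotation are not given in the sources used here. Per the labels' protocols, libraries came from 1 µg of total RNA by a kit for which no strand is named. The 20 per-library files equal the series table. Symbols and positions are GENCODE M21 on GRCm38 (54495 of 54532 IDs matched).

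Low genes were removed with filterByExpr of edgeR (at least 10 counts in a group-sized number of libraries and 15 in all), which left 15543. All 20 libraries entered 1 quasi-likelihood fit with a coefficient per group and trimmed-mean scaling (edgeR 4.0.16, R 4.3.3, 16 residual degrees of freedom), with Benjamini-Hochberg adjustment over all genes and a threshold of 0.05; the steps were tested on simulated data. Fitted differences were read only where 1 group had at least 20 counts. The SE of an edgeR difference is its size divided by the square root of the test's F statistic, and fitted 95% intervals use it. For genes near 0 in a group this SE is too small, and the counting intervals of the ratios are wider. Ratios of summed counts have exact 95% Poisson intervals; the limit for 0 is 3 counts over a group. Alternatives were other scalings, filters, DESeq2 1.42.0, limma 3.58.1 voom, a replicate block, a term for the 2 library sets, and leaving out each library. Other genes are named where they lie in the cluster, are paralogs, are among the 4 smallest p-values of a list of partners or regulators under water, or lie closest to a member over the 20 libraries. The members, lists and tests were chosen with earlier results of these data known. Some genes of the cluster and of the lists are not reported here.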

Additional observations from a re-analysis of the deposited data

Results flagged for a closer look

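Hoxa10 in ascending BAPN replicate 4 stood apart from its group: it had 0.276 CPM, from 5 counts, and the other 4 libraries of that group had 0. The gap to the nearest library, divided by the range of the group, was 1, above the critical value of 0.71 for 5 samples. With 4 libraries at 0 that quotient is 1 for any count above 0, so at these counts the critical value says little, and the usual rate of about 1 in 20 by chance cannot be applied to the 32 sets of a member in a group examined this way. The same library had 9 counts of Hoxa7 and 4 of Hoxa9, which brings Hoxa6, Hoxa7, Hoxa9 and Hoxa10 to 18 counts together. The 4 genes had 693 to 1118 counts in the descending libraries and 2 to 7 in the other ascending libraries. Its 8 HoxB and HoxC paralogs of groups 6 to 10 had 2 counts, against 1232 to 1780 in the descending libraries and 0 to 5 in the other ascending libraries. It was also the library that held the counts of Hoxa13 (1), Hoxc10 (1) and Hoxc11 (2), which were at 0 in the other 19 libraries. Hoxc10 is among the 8 paralogs, so its count is already part of the 2 counts above. Other Hox genes almost without counts had theirs in other groups: Hoxb1 and Hoxb13 only in ascending water and Hoxd13 only in descending water. The cause was not tested.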

How the results depend on the processing

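The number of members called stayed at 5 for descending against ascending aorta under water, at 0 for BAPN against water in each region and at 0 for the difference of the BAPN effects under every alternative run, the replicate block (0, 0 and 0 calls for BAPN, 5 for region) included; under BAPN it was 6 for region, 5 with the batch term (the 2 library sets) and 5 to 6 without single libraries, the sixth being Hoxa3. Of 952 alternative values of single members, 909 kept direction and call, 7 lost the call, all Hoxa3 under BAPN (0.09 with the batch term, adjusted p = 0.78), and 36 changed sign, all of values that were not called. For region under water these were Hoxa3 at 0.0017 with the replicate block, 0.054 with the batch term and 0.19 within the high pseudogene set, and Hoxa2 at -0.045 within the low set; without single libraries Hoxa3 ran from -0.059 to 0.083 and Hoxa4 from -0.075 to 0.11. Under BAPN, Hoxa4 was -0.084 with the batch term. For BAPN in the ascending aorta, Hoxa3 was 0.046 with the batch term and 0.13 within the high set. For BAPN in the descending aorta, Hoxa4 was 0.011 by limma-voom and 0.015 with the replicate block, Hoxa7 was -0.021 with the batch term and -0.031 within the low set, and without single libraries Hoxa4 ran from -0.075 to 0.10 and Hoxa6 from -0.18 to 0.057. For the difference of effects, the batch term gave -0.16 for Hoxa2 and -0.18 for Hoxa4, and without single libraries Hoxa2 ran from -0.064 to 0.13. The cause was not tested. Counted on all exon bases, Hoxa3 in descending water was 5.78 and Hoxa7 13.8 CPM per kb, which put Hoxa7 under Hoxa5 at 15.6.

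The labels do not say whether replicate numbers pair the samples. In no comparison were the correlations of all same-numbered samples over 0.1: they ran from -0.029 to 0.097 for region under water, 0.048 to 0.086 for region under BAPN, -0.011 to 0.13 for BAPN in descending and -0.041 to 0.066 for BAPN in ascending. For region under BAPN all 5 numbers correlated best with their own, a hint from the data and not the design. Over all genes, the batch term gave 1126 calls for BAPN in descending (1667 without it), 542 in ascending (986 without it) and 2755 for region under BAPN (4626 without it); within-set fits gave 430 for BAPN in descending, 483 in ascending, and 2537 (high set) and 2601 (low set) for region under water (4243 in all libraries). For BAPN in descending, 961 genes were higher and 706 lower, and 706 higher and 874 lower with upper-quartile scaling. Without the filter the difference of effects called 41 genes. Depth limits Hoxa6, Hoxa7, Hoxa9, Hoxa10 and Hoxa11 in the ascending aorta, where a BAPN effect was not detectable.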
